A study of Mus musculus with 19 samples.

Results

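Remote ischemic conditioning (RIC) of a limb was compared with a sham procedure in the livers of mice on a choline-deficient, amino acid-defined, high-fat diet (CDAHFD). The comparison used 4 CDAHFD RIC and 5 CDAHFD sham samples out of 19 in the series, taken by the treatment named for each sample, and every entry of the deposited expression table that had a gene name, which was 52110 of 55335. The other 10 samples, 5 NC sham and 5 NC RIC, came from mice on normal chow (NC) and were used to ask whether a change with conditioning differed between the diets; they also entered the filter on low values and the shared estimate of spread. All samples were whole liver of wild-type (WT) mice. Strain, sex, age, weeks on the diet, the number and timing of conditioning sessions, the interval to harvest, and the feeding state and clock time at harvest are not given in any source used here. The labels call the samples replicates and do not say that each was a separate animal, so p-values reflect the spread among these samples, part of which may be technical.

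In RIC the blood flow of a limb is stopped and released, usually in repeated short cycles, and distant organs are studied for effects carried by nerves, circulating factors or extracellular vesicles. Without dietary choline the liver makes too little phosphatidylcholine to export triglyceride in very low density lipoprotein, and CDAHFD feeding is used to produce fat accumulation with inflammation and fibrosis, a model of steatohepatitis. In hepatocytes, insulin restrains the transcription of gluconeogenic genes through FoxO1, fasting raises fatty acid oxidation through the nuclear receptor PPAR-alpha, and misfolded protein releases the heat shock factor HSF1 to induce chaperones.

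Levels are in FPKM, fragment counts scaled to gene length and to library depth, and are given as mean ± SD, with n = 4 in CDAHFD RIC and n = 5 in each other group. Changes are differences in log2(FPKM + 1) with their standard error (SE), a scale that understates the change of genes near 1 FPKM. Genes were tested with limma where the mean over the 19 samples was at least 1 FPKM, which left 10577, and genes with an adjusted p under 0.05 count as passing. With conditioning 922 genes rose (8.72% of those tested) and 1964 fell (18.6%), and the median difference of all tested genes was -0.08. Of the genes that passed, 65 rose by at least 1 on the log2 scale and 94 fell by at least 1. The FPKM of the 4 conditioned samples lay wholly above or below those of the 5 sham samples for 1944 genes (18.4%), and 1695 of these passed.

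The excess of falls over rises depended on scaling. Rescaled by the median ratio between samples, the median of all genes moved from -0.08 to 0.01 and the calls to 1378 higher and 977 lower, and rescaled to a common sum they were 1210 higher and 971 lower. Under median-ratio scaling 918 of the 922 rises and 977 of the 1964 falls of the unscaled values passed again in the same direction. Counts for gene lists are to be read against the shares of all tested genes, 8.72% higher and 18.6% lower, and their median of -0.08. These are not repeated for each list. Where a list lies near these shares, its count is no result about its members.

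Depth, estimated from the smallest steps in the FPKM of single-exon genes, was 15.9 to 26.5 M reads in the 9 samples. However, only 26.5% to 29.8% of low values were whole numbers of reads to within 2%. Whole reads were thus not recovered, and the depth stays uncertain. Principal component 1 of the 9 samples (40.5% of their variance) separated the groups, with scores from -25.9 to -2.62 in sham and from 14.2 to 26.2 in RIC. Sham replicates 2 and 5 stood apart from the other sham samples on the second component (14.1%), at -21.6 and -18.2. A trend with transcript length ran between the groups. With the genes in 10 bins of exonic length, those in the shortest bin (57 to 986 bases) had a median difference of -0.27, with 44 higher and 306 lower calls among 1034, and those in the longest bin (8770 to 41155 bases) had a median of 0.05, with 166 higher and 84 lower. On chow the same bins had medians of -0.12 and -0.05. The median deviation of the longest bin minus that of the shortest was -0.3, 0.13, -0.25, -0.27 and 0.03 in the 5 sham samples and 0.25, 0.25, 0.16 and 0.02 in the 4 conditioned ones. Sham replicates 2 and 5 were thus the sham samples nearest to the conditioned ones in this measure, and the groups overlapped. Its part in the differences below was not tested, and the lists it bears on most are given with and without a correction for length and GC content.

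**Figure D1:**
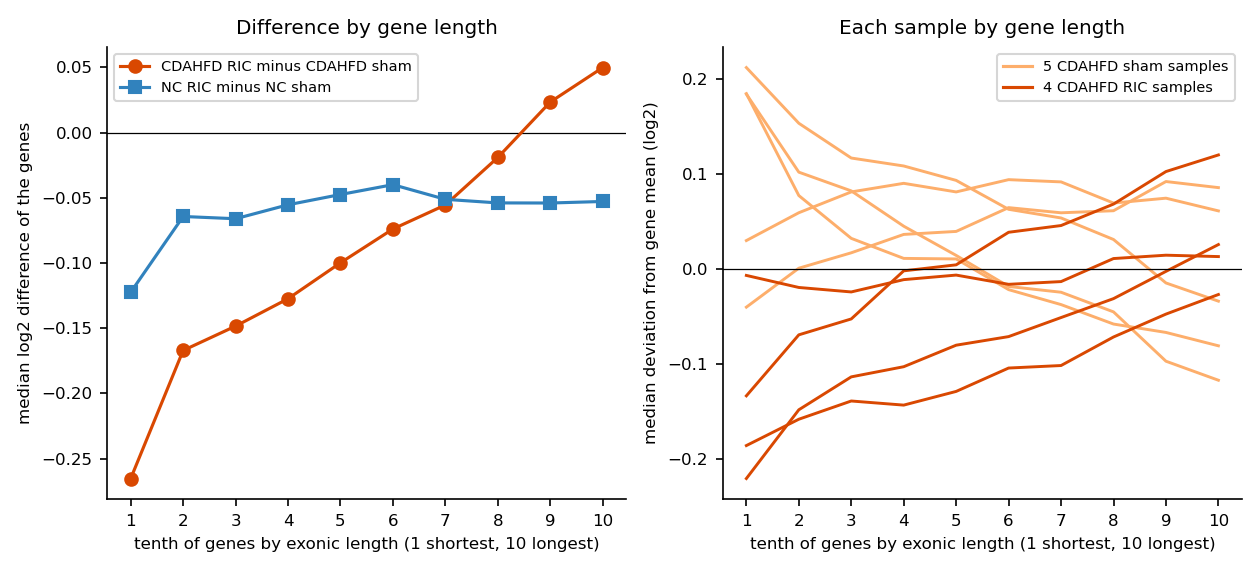
Genes were split into 10 bins by exonic length (x axes). Left, the median log2 difference with conditioning on CDAHFD (orange) runs from -0.27 to 0.05 and on chow (blue) from -0.12 to -0.05; right, each line is 1 sample's median deviation from the gene means, with sham in light and RIC in dark orange.

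The tissue label held against its markers. Albumin (Alb), the main plasma protein made by hepatocytes, stood at 24729 ± 2636 FPKM in sham and 30916 ± 5259 in RIC. All 14 measured hepatocyte markers were expressed, and 3 rose and 1 fell. None of 12 skeletal muscle markers reached the level for testing, and their summed level was at most 2.3 FPKM in any of the 9 samples. In whole tissue, fewer cells of a type and less RNA per cell cannot be told apart.

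The cytosolic chaperones that HSF1 drives were lower after conditioning in nearly the whole family. Of 28 tested members 23 fell, none rose, all 28 differences were negative, and the median was -0.87. Falls numbered 22 without sham replicates 2 and 5, 20 under median-ratio scaling and 21 after correction for length and GC. The heat shock element that HSF1 binds is built of inverted repeats of GAA, here searched as GAANNTTC or TTCNNGAA, each of which is its own reverse complement. At least 1 of these was present in 15.1% of 32851 promoter windows of 300 bases (250 before to 50 after a start). By gene, 12 of the 23 tested chaperone genes with a RefSeq entry had it in at least 1 window. So did 6 of 15 gluconeogenesis genes and 1 of 17 genes of the insulin and FoxO list, so the match was not confined to chaperones. A longer element of 3 repeats was found in 0.603% of windows and in 4 of the 23 chaperone genes, Hspa1b and Hspb1 not among them. Genes can have several windows, so shares of windows and of genes, here and below, are not directly comparable. Stretches of 120 bases upstream of the start are shown for the inducible Hsp70 gene Hspa1b and the small heat shock protein gene Hspb1, both of which fell, from RefSeq on build GRCm38.p6 with the matches in capitals. The first is chr17:34959273-34959392 on the minus strand and the second chr5:135887752-135887871 on the plus strand.
Hspa1b: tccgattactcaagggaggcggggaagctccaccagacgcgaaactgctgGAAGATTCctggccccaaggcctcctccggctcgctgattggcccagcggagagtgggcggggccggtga
Hspb1: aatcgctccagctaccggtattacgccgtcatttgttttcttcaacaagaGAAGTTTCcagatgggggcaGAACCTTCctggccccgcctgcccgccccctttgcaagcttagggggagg
The match in Hspa1b began 104 bases before the annotated start and those in Hspb1 began 117 and 97 bases before it.

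Hspa1b was 55.7, 20.5, 42.4, 32.9 and 33.3 FPKM in the 5 sham samples. In the 4 conditioned samples it was 1.54, 1.44, 1.58 and 2.61. The lowest sham sample was far above the highest conditioned one, and the fall was -3.71 ± 0.26 (adjusted p = 6.86e-08). Its near-identical neighbour Hspa1a, whose reads cannot be told from it with certainty, differed by -2.65 ± 0.21, adjusted p = 3.9e-07. Hsph1, an Hsp110 that recharges Hsp70 with nucleotide, measured 15.6, 13.9, 15.1, 16.6 and 20.8 in sham and 3.66, 2.49, 1.99 and 2.68 in RIC. The sham mean was 6.06 times the conditioned mean, the groups were far apart, and the difference was -2.24 ± 0.19, adjusted p = 1.27e-06. Dnajb1, the J-domain partner of inducible Hsp70, had 19.6, 17.1, 18.1, 15.6 and 20 in sham and 5.54, 5.27, 4.33 and 5.2 in RIC, again without overlap (-1.65 ± 0.11, adjusted p = 3.6e-08).

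Co-chaperones and Hsp90 partners moved the same way. Bag3, which couples Hsp70 to selective autophagy, was 16 ± 1.87 in sham and 7.47 ± 0.78 in RIC (-1 ± 0.14, adjusted p = 8.64e-05). Fkbp4, an Hsp90 co-chaperone of steroid receptors, was 60.7 ± 10.9 in sham and 23.2 ± 3.32 in RIC (-1.34 ± 0.16, adjusted p = 2.62e-05). Ahsa2, related to the activator of the Hsp90 ATPase, was 11.1 ± 1.09 in sham and 4.48 ± 0.441 in RIC (-1.14 ± 0.11, adjusted p = 4.29e-06), and Chordc1, another Hsp90 partner, was 11.3 ± 1.53 in sham and 5.84 ± 0.735 in RIC (-0.85 ± 0.14, adjusted p = 0.000413). In each of these 4 genes the groups did not overlap. The inducible Hsp90 gene Hsp90aa1 measured 48.7, 92.8, 107, 103 and 101 in sham and 35.5, 42.1, 58.6 and 41.3 in RIC (-0.98 ± 0.27, adjusted p = 0.0134). Sham replicate 1 lay among the conditioned samples. Hspb1 differed by -1.19 ± 0.32, adjusted p = 0.0115. Serpinh1, the collagen chaperone of the endoplasmic reticulum and an HSF1 target, differed by -1.19 ± 0.24, adjusted p = 0.00181 with overlapping groups. The constitutive Hspa8 fell from 410.1 to 214 (-0.93 ± 0.15, adjusted p = 0.000342). The entries of small nucleolar RNAs encoded in its introns also had lower values, Snord14e by -4.11 ± 1.02 (adjusted p = 0.00728) and Snord14c by -2.1 ± 0.52 (adjusted p = 0.00728). These short entries overlap Hspa8, so their reads cannot be told from those of Hspa8, and a fall of the small RNAs themselves is not shown. Snord14e was 0.0108 to 0.0275 FPKM in RIC. In sham it was 0.0506 FPKM in replicate 3 against 29.5 to 43.3 in the other samples. Bag4, a silencer of death domains that binds Hsp70 but is no classical heat shock gene, rose (1 ± 0.11, adjusted p = 1.92e-05).

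**Figure D2:**
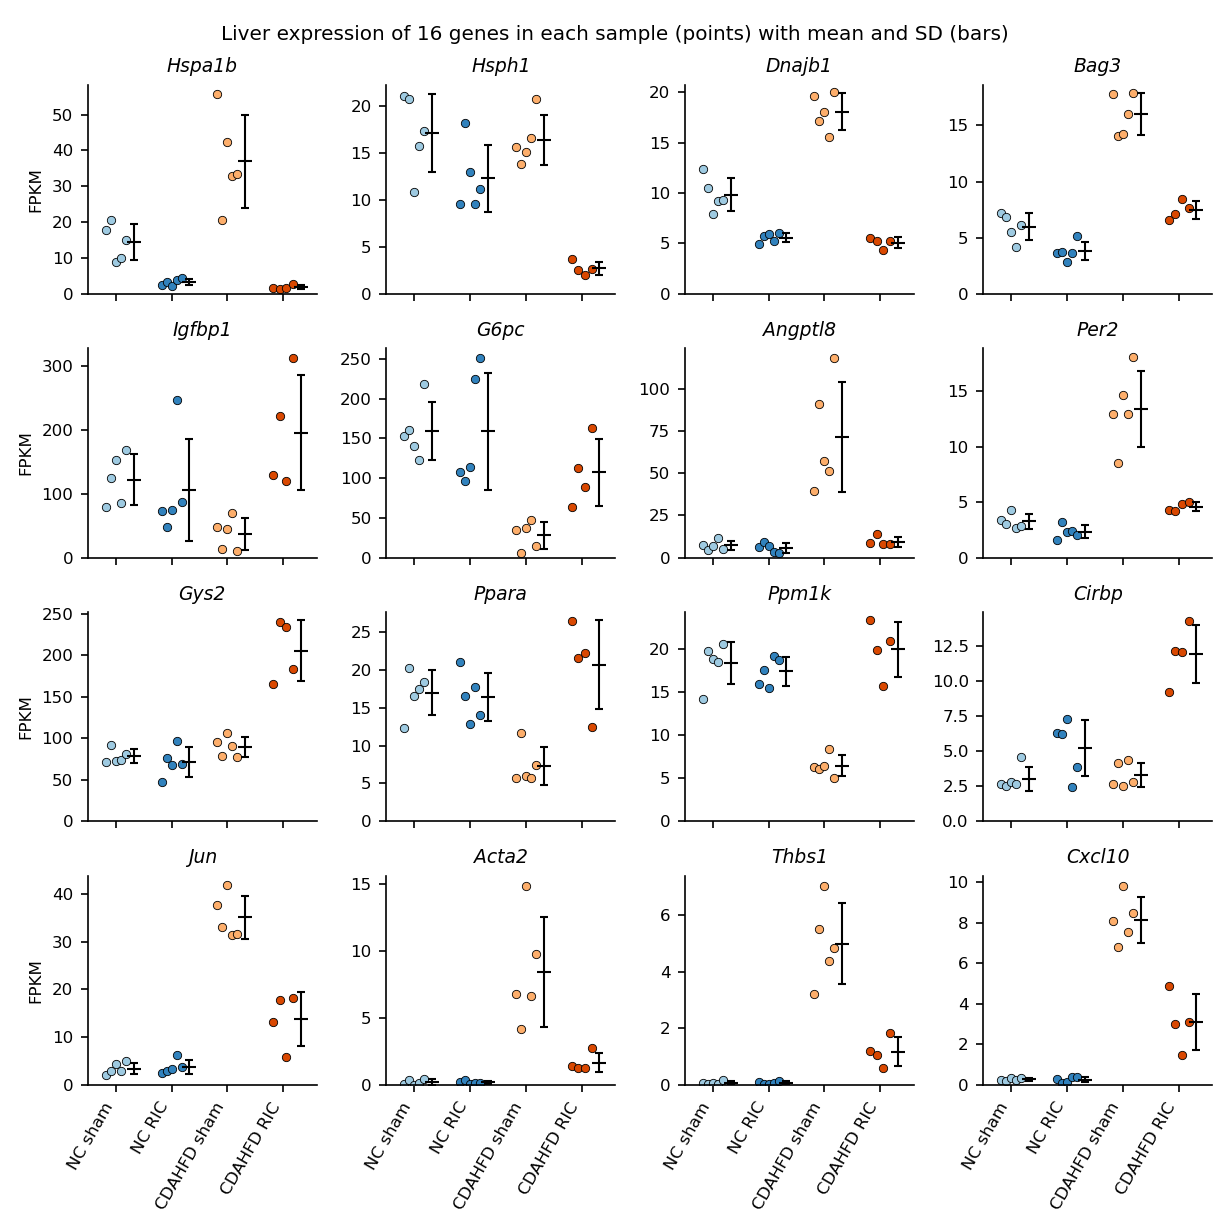
FPKM of 16 genes in each sample (points), with the mean and SD of each group beside them, for the 4 groups of the series. In CDAHFD mice the conditioned samples lie wholly below sham for Hspa1b, Hsph1, Dnajb1, Bag3, Angptl8, Per2, Jun, Acta2, Thbs1 and Cxcl10 and wholly above sham for Igfbp1, G6pc, Gys2, Ppara, Ppm1k and Cirbp.

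Genes on the insulin and FoxO1 axis moved in both directions. Of 25 tested members 4 rose and 5 fell, with a median of 0.17, and of 21 gluconeogenesis members 7 rose and 1 fell, with a median of 0.32. Igfbp1, G6pc, Pdk4 and Txnip rose and Angptl8 fell. The core of the insulin response element bound by FoxO1, CAAAACA or its reverse complement TGTTTTG, was present in 6.28% of promoter windows, in those of 4 of 17 genes of the insulin and FoxO list with a RefSeq entry and in those of 2 of 15 gluconeogenesis genes. Upstream windows of 120 bases are shown for the FoxO1 targets Igfbp1 (chr11:7197629-7197748) and G6pc (chr11:101367492-101367611), both on the plus strand of GRCm38.p6 from RefSeq, with that core in capitals.
Igfbp1: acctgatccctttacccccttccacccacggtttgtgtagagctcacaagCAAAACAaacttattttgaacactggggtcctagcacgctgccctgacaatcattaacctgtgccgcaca
G6pc: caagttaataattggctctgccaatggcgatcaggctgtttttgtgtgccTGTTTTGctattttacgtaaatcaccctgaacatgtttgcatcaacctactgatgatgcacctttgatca
The match began 108 bases before the annotated start of Igfbp1 and 174 bases before that of G6pc.

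Igfbp1, a secreted binding protein of insulin-like growth factors, was 47.5, 13.8, 44.5, 69.4 and 9.92 FPKM in sham and 129.6, 221, 119.9 and 313 in RIC (2.59 ± 0.51, adjusted p = 0.00167). G6pc, the catalytic subunit of glucose-6-phosphatase that releases free glucose, was 34.2, 5.87, 37, 46.9 and 14.8 in sham and 63.8, 113, 88.4 and 163 in RIC (2.13 ± 0.45, adjusted p = 0.00273). Every conditioned sample was above every sham sample for both, while sham replicates 2 and 5 were the lowest for both. Without these 2 samples the differences were 1.76 for Igfbp1 (adjusted p = 0.00738) and 1.35 for G6pc (adjusted p = 0.00689). Ppargc1a, the coactivator PGC-1-alpha that drives gluconeogenic and mitochondrial genes, was 1.87, 2.77, 2.76, 3.61 and 2.42 in sham and 3.71, 9.64, 6.88 and 8.14 in RIC (1.09 ± 0.22, adjusted p = 0.00173). Fructose-1,6-bisphosphatase (Fbp1) differed by 0.44 ± 0.09, adjusted p = 0.00293, serine dehydratase (Sds) by 1.02 ± 0.23, adjusted p = 0.00379 and the fasting-induced factor Creb3l3 by 0.32 ± 0.08, adjusted p = 0.00563. Pck1, which makes phosphoenolpyruvate and is a classical target of the same pathway, did not pass: it was 351 ± 129 in sham and 463 ± 107 in RIC (0.47 ± 0.25, adjusted p = 0.165). Without sham replicates 2 and 5 the Pck1 difference was 0.08 (adjusted p = 0.74).

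Falls on this axis included a gene that feeding induces. Angptl8, a secreted inhibitor of lipoprotein lipase that rises with feeding, was 39.3, 91.2, 56.9, 51.4 and 118 in sham and 8.39, 13.9, 7.73 and 7.82 in RIC, a sham mean 7.55 times that of RIC (-2.72 ± 0.33, adjusted p = 3.19e-05). The groups did not overlap. Trib1, a pseudokinase that directs C/EBP-alpha to degradation, fell (-0.66 ± 0.16, adjusted p = 0.00611). Pdk4, which shuts pyruvate out of the citric acid cycle, was 17, 9.02, 11.9, 16.7 and 6.03 in sham and 54.6, 54.2, 26 and 83.6 in RIC (2.06 ± 0.46, adjusted p = 0.00421), and Txnip, a brake on glucose uptake, was 34.5, 25.6, 38, 32 and 21.5 in sham and 67, 90.1, 91.7 and 106 in RIC (1.53 ± 0.28, adjusted p = 0.00113); both were higher in every conditioned sample. Ppp1r3b, the subunit that brings phosphatase 1 to glycogen, fell (-1.06 ± 0.26, adjusted p = 0.00656; -0.68 without sham replicates 2 and 5), whereas liver glycogen synthase (Gys2) rose from 89.9 ± 12.3 to 206 ± 37 (1.18 ± 0.16, adjusted p = 9.22e-05). Over the glycolysis and glycogen list 3 of 20 tested members rose and 2 fell.

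Genes of fatty acid oxidation were higher in part. Of 43 tested members of the PPAR-alpha list 12 rose, none fell and the median was 0.24; without sham replicates 2 and 5 there were 13 rises, and under median-ratio scaling 16. Ppara itself was 5.79, 11.7, 6.05, 5.75 and 7.47 in sham and 26.5, 21.6, 22.3 and 12.5 in RIC, all 4 above all 5 (1.38 ± 0.21, adjusted p = 0.000265). Cpt1a, the gate for long-chain fatty acids into mitochondria, was 74.4 ± 5.48 in sham and 101 ± 12.3 in RIC (0.43 ± 0.1, adjusted p = 0.00557). The acyl-CoA thioesterases Acot12 and Acot3 rose (0.58 ± 0.1, adjusted p = 0.000469 and 1.49 ± 0.34, adjusted p = 0.00435), and for Acot3 conditioned replicate 3 at 25.4 stood far above the other conditioned samples, which ran from 6.84 to 9.16. Fgf21, a fasting hormone and PPAR-alpha target, was 28.1, 15.2, 15, 9.49 and 7.3 in sham and 9.99, 25.7, 14.1 and 18.8 in RIC and did not pass (0.24 ± 0.32, adjusted p = 0.61).

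In the list of lipid droplet and uptake genes 4 of 19 rose and none fell. They included Fitm2, which partitions triglyceride into droplets (0.55 ± 0.11, adjusted p = 0.00227), G0s2, an inhibitor of adipose triglyceride lipase (1.07 ± 0.31, adjusted p = 0.0163), and the fatty acid carrier Cd36 (0.68 ± 0.25, adjusted p = 0.0484). The G0s2 call was lost without conditioned replicate 2 or 4, and that of Cd36 in 11 of 20 alternative analyses, including those without conditioned replicate 2, 3 or 4 or sham replicate 1, 3, 4 or 5. In the lipogenesis list 3 of 19 rose and 2 fell: the mitochondrial acetyl-CoA carboxylase Acacb rose (0.8 ± 0.12, adjusted p = 0.00018), as did the elongase Elovl6 (0.91 ± 0.21, adjusted p = 0.00522) and Srebf1, the lipogenic transcription factor (0.67 ± 0.18, adjusted p = 0.011), while malic enzyme (Me1) fell (-0.42 ± 0.11, adjusted p = 0.00758). The Me1 call was lost with values rescaled to a common sum and that of Srebf1 with only the compared groups in the fit. Of 25 cholesterol synthesis genes 1 rose and 1 fell.

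Of 19 lipoprotein genes 6 rose and 3 fell. Apob, the scaffold of very low density lipoprotein, was 312 ± 131 in sham and 552 ± 132 in RIC (0.88 ± 0.23, adjusted p = 0.0105). Its call was lost with only the compared groups in the fit. The paired sterol exporters Abcg5 and Abcg8 rose together (0.83 ± 0.14, adjusted p = 0.000439 and 0.92 ± 0.19, adjusted p = 0.00255), Scarb1, the HDL receptor, rose (0.5 ± 0.11, adjusted p = 0.00461), and Apom, a carrier of sphingosine-1-phosphate on HDL, rose (0.71 ± 0.16, adjusted p = 0.00386). Apoc3, an inhibitor of triglyceride clearance, fell without overlap from 813 ± 27.6 to 547 ± 83.5 (-0.58 ± 0.11, adjusted p = 0.00125). Of 26 bile acid genes 8 rose and none fell, with a median of 0.18. They included the canalicular exporters Abcc2 (0.59 ± 0.1, adjusted p = 0.000535) and Abcb4 (0.39 ± 0.11, adjusted p = 0.0147), the latter a phosphatidylcholine floppase whose call was lost without conditioned replicate 2. The uptake carrier Slc10a1 (0.57 ± 0.15, adjusted p = 0.0104), the conjugating ligase Slc27a5 (0.53 ± 0.13, adjusted p = 0.00596) and Klb, the co-receptor of FGF15 and FGF21 (0.86 ± 0.17, adjusted p = 0.00173), also rose. Cyp7a1, the rate-limiting enzyme of bile acid synthesis, was 39.6, 78, 32.9, 19.1 and 37.6 in sham and 29.8, 17.8, 47.5 and 24.5 in RIC, overlapped and did not pass (-0.4 ± 0.36, adjusted p = 0.417). Of 35 cytochrome P450 genes of families 1 to 3, whose near-identical copies can share reads, 8 rose and none fell, led by Cyp3a13 (0.98 ± 0.12, adjusted p = 3.09e-05) and Cyp3a25 (0.78 ± 0.14, adjusted p = 0.000977).

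Amino acid and one-carbon enzymes were higher in part. In the list of the urea cycle and amino acid breakdown 9 of 27 rose and 2 fell. Cps1, the entry step of the urea cycle, was 456 ± 133 in sham and 774 ± 184 in RIC (0.78 ± 0.18, adjusted p = 0.00482). Histidase (Hal) rose (1.04 ± 0.17, adjusted p = 0.000424), as did the tryptophan enzymes Tdo2 (1.17 ± 0.22, adjusted p = 0.00133) and Kmo (0.42 ± 0.09, adjusted p = 0.00349). Ppm1k, the phosphatase that switches on branched-chain keto acid breakdown, was 6.33, 6.09, 6.45, 8.37 and 5.05 in sham and 23.3, 19.8, 15.7 and 20.9 in RIC. The lowest conditioned sample was above the highest sham sample by a wide margin, and the difference was 1.49 ± 0.13, adjusted p = 1.27e-06. Slc7a2, a carrier of arginine and lysine, rose (1.49 ± 0.27, adjusted p = 0.00099).

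In the list of choline and methionine genes, the pathway that the diet deprives, 5 of 26 rose and 1 fell. Gnmt, which consumes S-adenosylmethionine, was 188 ± 50.1 in sham and 364 ± 98.2 in RIC (0.95 ± 0.19, adjusted p = 0.0017). Mat1a, which makes S-adenosylmethionine, was 1071 ± 202 in sham and 1761 ± 502 in RIC (0.69 ± 0.19, adjusted p = 0.0128), and Ahcy, which clears its product, was 408 ± 32.5 in sham and 622 ± 180.2 in RIC (0.56 ± 0.15, adjusted p = 0.0111). The Mat1a call was lost without conditioned replicate 3 and that of Ahcy with only the compared groups in the fit. Gpcpd1, which frees choline from glycerophosphocholine, rose (2.11 ± 0.34, adjusted p = 0.000385), and so did Lpcat3, which remodels phosphatidylcholine (0.49 ± 0.11, adjusted p = 0.00412). Pemt, which makes phosphatidylcholine without dietary choline, fell (-0.32 ± 0.09, adjusted p = 0.0173); its call was lost under median-ratio scaling, with values rescaled to a common sum, after the length and GC correction and without conditioned replicate 3. Without sham replicates 2 and 5 the list had 8 rises and 3 falls, and under median-ratio scaling 10 rises and none.

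Temperature- and clock-related genes included some of the larger changes. Cirbp, a cold-inducible RNA-binding protein, was 2.69, 4.18, 2.53, 4.35 and 2.81 in sham and 9.26, 12.2, 12.1 and 14.3 in RIC, without overlap (1.6 ± 0.22, adjusted p = 9.82e-05). Of 25 clock genes tested, 6 rose and 2 fell. Per2, a repressor of the clock that also responds to heat shock factor and feeding, was 12.9, 8.55, 14.7, 13 and 18.1 in sham and 4.28, 4.21, 4.85 and 5 in RIC (-1.34 ± 0.16, adjusted p = 3.19e-05). Noct, a rhythmic phosphatase, fell (-1.36 ± 0.36, adjusted p = 0.011). Rora, an activator of the clock (0.85 ± 0.13, adjusted p = 0.000217), Cry2, a repressor (0.39 ± 0.09, adjusted p = 0.00308), and Upp2, a rhythmic uridine phosphorylase of liver (2.11 ± 0.41, adjusted p = 0.00141), rose. Dbp, a clock output factor with a steep daily rhythm in liver, did not pass (-0.24 ± 0.31, adjusted p = 0.588), and Arntl, the positive arm of the clock, was at 0.292 ± 0.049 in sham and 0.209 ± 0.115 in RIC, too low to be tested. Harvest times were not given, so a difference in clock time between the groups and an effect of conditioning cannot be told apart. The glucocorticoid-responsive repressor Klf9, itself rhythmic, rose (0.77 ± 0.13, adjusted p = 0.000441), and Bcl6, a repressor that growth hormone lowers, fell (-1.14 ± 0.23, adjusted p = 0.00198).

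Immediate early genes, which cells switch on within minutes of a stimulus, were lower. Of 29 tested members 16 fell and 1 rose, with a median of -0.45. Jun, a subunit of AP-1, was 37.6, 33, 41.8, 31.3 and 31.6 in sham and 13.3, 17.8, 5.95 and 18.2 in RIC, and the groups did not overlap (-1.38 ± 0.27, adjusted p = 0.00142). Ier3 (-1.28 ± 0.14, adjusted p = 1.95e-05), the stress-inducible Atf3 (-1.14 ± 0.16, adjusted p = 1e-04), the small GTPase Rhob (-1.07 ± 0.18, adjusted p = 0.000637) and the secreted Cyr61 (-1.45 ± 0.18, adjusted p = 3.84e-05) fell without overlap. Falls numbered 16 without sham replicates 2 and 5, 14 under median-ratio scaling and 12 after the length and GC correction.

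Of the NR4A orphan receptors, which belong to the same class of early genes, only Nr4a1 was high enough to test. It was 1.83, 2.54, 2.08, 1.94 and 2.93 in sham and 1.19, 0.94, 0.659 and 1.25 in RIC, the groups did not overlap, and it fell (-0.7 ± 0.24, adjusted p = 0.0351). Its call was lost in 14 of 19 alternative analyses, among them those without sham replicate 2, 3 or 5 or conditioned replicate 1, 2 or 3 and those under median-ratio scaling, with values rescaled to a common sum and after quantile normalization. Nr4a3 was 0.325, 0.48, 0.287, 0.363 and 0.215 in sham and 0.058, 0.116, 0.0261 and 0.102 in RIC, again without overlap, and Nr4a2 was 0.0918, 0.543, 0.437, 0.556 and 0.213 and 0.148, 0.304, 0.114 and 0.0617, with overlap; both were below the level for testing. Rgs16, a brake on G protein signalling that rises in fasted liver, was 8.02, 1.09, 6.86, 6.25 and 1.16 in sham and 21.3, 9.12, 11.9 and 14.1 in RIC (1.62 ± 0.51, adjusted p = 0.0243), a call lost in 6 alternatives including those without sham replicate 2 or 5 or conditioned replicate 1; without sham replicates 2 and 5 the difference was 0.85.

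Genes of contractile and matrix-producing cells were lower as well. Acta2, the smooth muscle actin that marks activated stellate cells, was 6.78, 4.17, 14.8, 6.65 and 9.76 in sham and 1.38, 1.25, 1.27 and 2.77 in RIC, without overlap (-1.75 ± 0.23, adjusted p = 7.66e-05). Tagln, another contractile marker, was 23.9 ± 6.81 in sham and 8.47 ± 2.76 in RIC (-1.4 ± 0.23, adjusted p = 0.000432). In the list of collagens and matrix 13 of 32 fell and none rose, with a median of -0.42. Thbs1, thrombospondin 1, an activator of TGF-beta, was 3.2, 5.52, 7.05, 4.39 and 4.86 in sham and 1.19, 1.07, 0.613 and 1.84 in RIC (-1.46 ± 0.15, adjusted p = 1.12e-05). Ctgf (-1.61 ± 0.33, adjusted p = 0.00208), a TGF-beta target, fell without overlap, and Timp1, an inhibitor of matrix proteases, fell with overlap (-1.03 ± 0.24, adjusted p = 0.00515). The Timp1 call was lost with only the compared groups in the fit.

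The fibrillar collagens were less certain. Col3a1 was 26, 17.9, 59.4, 46.1 and 25.2 in sham and 13.6, 14.7, 6.57 and 26.8 in RIC (-1.15 ± 0.31, adjusted p = 0.011). Col1a1 was 8.68, 3.47, 15.7, 10.4 and 5.16 in sham and 2.79, 3.35, 1.21 and 8.4 in RIC (-1.02 ± 0.33, adjusted p = 0.0295). The groups overlapped for both, and the Col1a1 call was lost in 10 of 19 alternatives, which include median-ratio scaling and the fits without sham replicate 1, 3 or 4 or conditioned replicate 1, 2 or 3. Of 13 tested targets of the growth regulators YAP and TEAD, a list that shares Ctgf and Cyr61 with others above, 7 fell and none rose. One of the 7, Ankrd1, averaged at least 1 FPKM in CDAHFD sham alone (3.22 ± 1.67, against 0.773 ± 0.428 in RIC). Ankrd1 was thus tested only through the group where it was high. The same pattern of group means held for 11 of all 1964 falls, and 4 of the 922 rises averaged at least 1 FPKM in CDAHFD RIC alone. These counts understate the limit, since the filter used the mean over the 19 samples. Thbs1 (0.079 in NC sham, 0.082 in NC RIC and 1.18 in CDAHFD RIC), Nr4a1 and Timp1 also reached the filter only with the CDAHFD sham samples. So did Acta2, whose chow means were both under 1 FPKM, and other named genes that are low on chow may share this limit. Of 15 tested stellate cell markers 5 fell and 1 rose, and their summed FPKM ran from 220.1 to 368.9 in sham and from 161.6 to 253.7 in RIC.

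Inflammatory genes gave a mixed picture. Of 19 chemokine genes 7 fell and 1 rose, with a median of -0.34. Cxcl10, a T cell attractant, was 8.07, 6.77, 9.82, 7.54 and 8.46 in sham and 4.85, 3, 1.5 and 3.09 in RIC, without overlap (-1.21 ± 0.16, adjusted p = 8.12e-05). The monocyte attractants Ccl2 (-0.69 ± 0.13, adjusted p = 0.00142) and Ccl7 (-0.91 ± 0.14, adjusted p = 0.000267) and the neutrophil attractant Cxcl5 (-1 ± 0.17, adjusted p = 0.000496) also fell without overlap. Of 31 interferon-stimulated genes 9 fell and none rose, among them Isg15 (-0.87 ± 0.19, adjusted p = 0.00385) and Oas2 (-0.64 ± 0.14, adjusted p = 0.00371). In the list of TNF, IL-1 and NF-kB responses 4 of 21 fell and 2 rose, shares near those of all genes, with Icam1, a leukocyte adhesion molecule, among the falls (-0.45 ± 0.1, adjusted p = 0.00414). Tnf itself was 1.11, 0.673, 1.51, 1.42 and 0.871 in sham and 1.07, 1.36, 0.498 and 1.17 in RIC, too low to be tested, and the groups overlapped. Of 26 acute phase genes 4 rose and 1 fell.

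Markers of resident macrophages lay higher in part. Of 15 tested Kupffer cell markers 4 rose and 1 fell, with a median of 0.22 and summed FPKM from 519.5 to 689.6 in sham and from 538.9 to 986 in RIC. Over all genes 8.72% rose and 18.6% fell. The differences of the 15 markers ran from -0.99 to 0.78, with 9 positive and 6 negative. Timd4, a receptor for apoptotic cells on embryonically derived Kupffer cells, was 0.711, 1.31, 1.42, 1.08 and 1.75 in sham and 2.05, 2.02, 2.96 and 2.18 in RIC, without overlap (0.56 ± 0.14, adjusted p = 0.00766). The scavenger receptor Cd163 (0.78 ± 0.24, adjusted p = 0.0242), the secreted Cd5l (0.65 ± 0.21, adjusted p = 0.03) and the complement receptor Vsig4 (0.65 ± 0.23, adjusted p = 0.0446) rose with overlap, and each of these 3 calls was lost without sham replicate 1 or conditioned replicate 2; that of Cd163 was also lost without conditioned replicate 3 or 4, that of Cd5l without sham replicate 3 or 4, and that of Vsig4 without sham replicate 4 or conditioned replicate 3 or 4. The general macrophage marker Adgre1 was 5.19, 9.62, 7.01, 6.2 and 9.23 in sham and 11, 21.4, 9.55 and 9.76 in RIC (0.67 ± 0.21, adjusted p = 0.0237), and its call was lost without sham replicate 1 or conditioned replicate 2. Among the 14 tested monocyte and pan-myeloid markers, which include Adgre1, 10 differences were negative and 4 positive, with a median of -0.14.

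Trem2, a lipid receptor of the macrophages that gather in steatohepatitis, was 6.81, 5.46, 7.47, 6.4 and 5.77 in sham and 4.39, 6.84, 2.85 and 6.86 in RIC and did not pass (-0.3 ± 0.15, adjusted p = 0.156). Of 17 lipid-associated macrophage markers 2 fell and none rose. Immunoglobulin transcripts, made by plasma cells, were lower for Igkc (-1.14 ± 0.35, adjusted p = 0.0222) and Ighg2c (-1.45 ± 0.24, adjusted p = 0.000534), and 2 of 5 tested B and plasma cell markers fell; the Igkc call was lost without conditioned replicate 1.

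Iron handling and bone morphogenetic protein (BMP) targets lay lower in part. Of 16 tested iron genes 5 fell and none rose, against 18.6% falls and 8.72% rises over all genes. Without sham replicates 2 and 5 the list had 4 falls and 2 rises. After the length and GC correction it had 3 falls and 1 rise, with a median of -0.06. Hepcidin (Hamp), the hormone that blocks iron export and a BMP target, was 1732, 2648, 2366, 1586 and 2899.7 in sham and 1224, 1850.1, 596 and 1064 in RIC, with overlap (-1 ± 0.26, adjusted p = 0.0096). The BMP feedback genes Smad7 (-1.09 ± 0.15, adjusted p = 0.0001) and Id1 (-0.99 ± 0.23, adjusted p = 0.00458) fell, as did the ferritin chains Fth1 (-0.57 ± 0.13, adjusted p = 0.00373) and Ftl1 (-0.45 ± 0.11, adjusted p = 0.00643). The calls of Hamp and Ftl1 were lost after quantile normalization and after the length and GC correction, and that of Hamp also without sham replicates 2 and 5.

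Proliferation and damage genes were lower in part. Of 26 cell cycle genes 11 fell and none rose. Mki67, expressed only in cycling cells, was 4.39, 7.25, 4.61, 2.9 and 5.5 in sham and 1.95, 2.12, 2.14 and 2.32 in RIC, and every conditioned sample was below every sham sample (-0.88 ± 0.14, adjusted p = 0.000304). Cdk4, a kinase of the first gap phase, fell (-0.98 ± 0.17, adjusted p = 0.000591). Without sham replicates 2 and 5, however, only 5 of the 26 fell. Of 14 p53 targets and arrest genes 4 fell and none rose, Trp53 by -0.7 ± 0.14 (adjusted p = 0.00167) and the p53 ligase Mdm2 by -0.4 ± 0.1 (adjusted p = 0.00864); under median-ratio scaling the list had 2 falls and 2 rises. In the NRF2 and oxidative stress list 7 of 36 fell and 1 rose, close to the shares of all genes. They included Nfe2l2, which encodes NRF2 itself (-0.71 ± 0.12, adjusted p = 0.000413), the superoxide dismutase Sod1 (-0.43 ± 0.09, adjusted p = 0.00255) and Gsta1 (-1.01 ± 0.22, adjusted p = 0.0032), a glutathione transferase with near-identical copies.

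Stress pathways of the endoplasmic reticulum had calls in both directions. In the unfolded protein response list 5 of 23 fell and 3 rose. The lectin chaperone Calr (-0.82 ± 0.22, adjusted p = 0.0114) and its fellow Sdf2l1 (-1.13 ± 0.31, adjusted p = 0.0135) fell, both calls being lost without conditioned replicate 3, while Crebrf, a regulator of the response, rose without overlap from 3.01 ± 0.361 to 7.36 ± 0.789 (1.06 ± 0.12, adjusted p = 1.92e-05). In the integrated stress response list 3 of 16 fell and 1 rose, shares near those of all genes. Ddit3, the death-associated factor CHOP, was 12.9, 10.7, 10.9, 9.21 and 11.7 in sham and 5.43, 5.66, 2.83 and 3.47 in RIC, without overlap (-1.21 ± 0.14, adjusted p = 2.94e-05). Among 17 hypoxia-inducible genes 4 fell and 2 rose: P4ha1, a prolyl hydroxylase for collagen, was 6.76 ± 1.13 in sham and 2.09 ± 0.412 in RIC (-1.32 ± 0.13, adjusted p = 7.51e-06), the angiogenic factor Vegfa was 22.1 ± 3.61 in sham and 15.3 ± 0.898 in RIC (-0.48 ± 0.1, adjusted p = 0.00261), and Bnip3, a mitophagy receptor, rose (0.41 ± 0.12, adjusted p = 0.0214), a call lost without conditioned replicate 3 or 4.

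Further changes were seen in liver transcription and secretion genes and among the largest rises and falls. Foxa3, a pioneer factor of liver, fell (-1.07 ± 0.21, adjusted p = 0.00151), and Lect2, a hepatokine that rises in fatty liver, fell (-0.82 ± 0.14, adjusted p = 0.00056). Among the largest rises were Rnf125, a ubiquitin ligase (2.67 ± 0.35, adjusted p = 6.84e-05), Fbf1, a ciliary protein (1.59 ± 0.35, adjusted p = 0.00395), and the transporter Abca6 (1.4 ± 0.22, adjusted p = 0.000265). Among the largest falls were Dynll1, a dynein light chain (-1.5 ± 0.21, adjusted p = 9.76e-05), and Rbm12b1, an RNA-binding protein with close relatives beside it (-1.52 ± 0.23, adjusted p = 0.000279).

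Counts for the other lists, each with its number of tested members, were as follows. Among 20 periportal genes 4 rose and none fell, and among 18 pericentral genes 1 rose and 3 fell. Hepatocyte identity factors (23 tested) had 2 rises and 3 falls, the growth hormone and IGF axis (16) had 1 and 1, glucocorticoid-responsive genes (19) had 2 and 0, and metallothioneins and zinc genes (8) had 0 and 2. Antigen presentation (16) had 1 rise and no fall, cell death (18) had 1 and 2, autophagy and lysosome (29) had 5 and 4 (8 and 0 under median-ratio scaling), hepatokines (23) had 1 and 5, and extracellular vesicle and tetraspanin genes (18) had 2 and 4. Of other cell type markers, 1 of 15 sinusoidal endothelial, 3 of 7 cholangiocyte, 1 of 3 neutrophil, 1 of 2 dendritic and the only platelet marker tested fell, while 2 of 14 monocyte and pan-myeloid and 1 of 3 adipocyte markers rose. None of 2 T and NK cell, 5 red cell and 1 pancreatic acinar markers passed. The summed FPKM of the cholangiocyte markers ran from 707 to 1141 in sham and from 479 to 726 in RIC, and their part in other results was not tested.

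**Figure D3:**
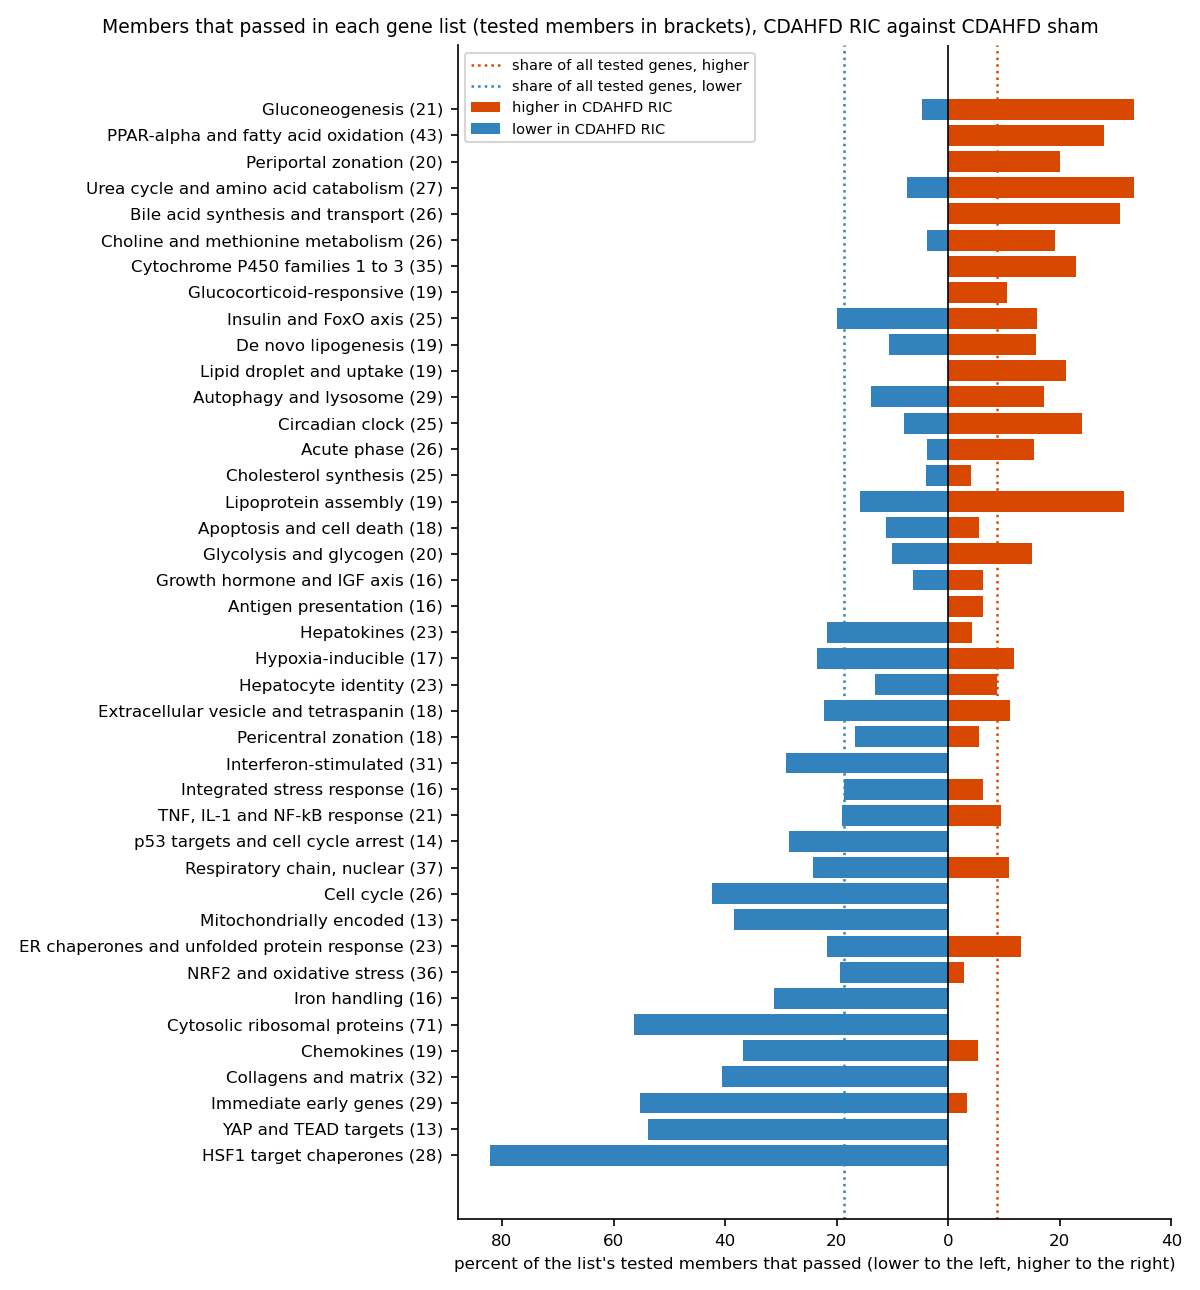
For the 41 pathway lists with at least 10 tested members (number in brackets), bars give the percent of tested members that passed and were lower (blue, to the left) or higher (orange, to the right) in CDAHFD RIC; dotted lines mark the shares of all tested genes, 18.6% lower and 8.72% higher. Among these lists HSF1 chaperones have the longest blue bar, with 23 of 28, and lists are ordered by their median log2 difference.

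Ribosomal and mitochondrial genes were lower in part, with counts that depended on the scaling and on the correction for length. Of 71 cytosolic ribosomal protein genes, whose exonic length had a median of 1830 bases, 40 fell and none rose, with a median of -0.32. Under median-ratio scaling 7 fell, and after the length and GC correction 6 fell and 3 rose. Rpl35a was 62.1 ± 11.8 in sham and 42.2 ± 6.44 in RIC (-0.54 ± 0.13, adjusted p = 0.00618) and Rps13 was 38.3 ± 5.15 in sham and 28.1 ± 4.28 in RIC (-0.43 ± 0.11, adjusted p = 0.00691), each with overlap. Ribosomal protein genes have many processed copies, so their reads are uncertain. Of 13 mitochondrially encoded genes 5 fell and none rose, with mt-Nd3, a subunit of complex I, at 2672, 1903, 2438, 2816 and 2219 in sham and 1785, 1385, 1584 and 1798 in RIC (-0.55 ± 0.11, adjusted p = 0.00161); 1 fell under median-ratio scaling and 2 after the correction. The mitochondrial transfer RNA gene mt-Ti, one of the shortest entries, fell by -2.2 ± 0.31 (adjusted p = 0.000104). Of 37 nuclear genes of the respiratory chain 9 fell and 4 rose. Under median-ratio scaling 2 fell and 6 rose, and after the correction, which also centred all genes near 0, 7 of 36 rose and none fell, so the direction of that list depended on the scaling. Ndufs1, a long member of the list, rose (0.62 ± 0.14, adjusted p = 0.00365).

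On chow the same procedure gave far fewer calls. Of the 10577 genes 34 rose (0.321%) and 91 fell (0.86%), and 47 of these 125 had passed on CDAHFD too, 4 higher on both, 25 lower on both and 18 in opposite directions. The difference between the diets was tested as an interaction, the change on CDAHFD minus the change on chow, and it passed for 711 genes (6.72%), 380 in the positive direction and 331 in the negative. For 62 of the 711 both chow means were under 1 FPKM, where the log2(FPKM + 1) scale leaves little room for a fall on chow, so their interaction does not show a response that depends on diet. Of the 711, 615 had passed on CDAHFD, which was 86.5% of the 711 and 21.3% of the 2886 genes called on CDAHFD. No claim that a change belongs to CDAHFD is made for the remaining genes.

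Part of the heat shock genes fell on both diets, and some of these fell more on CDAHFD. Hspa1b was 14.5 ± 5.08 in NC sham and 3.25 ± 0.937 in NC RIC, a fall of -1.83 (adjusted p = 0.00462), and the interaction was -1.88 ± 0.35 (adjusted p = 0.00449). Dnajb1 fell on chow by -0.71 (adjusted p = 0.00495), with an interaction of -0.94 ± 0.15 (adjusted p = 0.00122). Hspa8 fell by -0.78 on chow (adjusted p = 0.0141), close to its change on CDAHFD, and its interaction of -0.15 ± 0.2 did not pass (adjusted p = 0.691). Hsph1 did not pass on chow (-0.45, adjusted p = 0.215), and its interaction was -1.78 ± 0.26 (adjusted p = 0.000931). In the whole list 7 of 28 genes fell on chow, where the median was -0.22, and the interaction passed for 11. Fkbp4 (-0.1), Hsp90aa1 (-0.06) and Hspb1 (0.04), which fell on CDAHFD, changed little on chow and did not pass there.

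Some genes named above had changes of opposite sign on the diets; they are single genes, chosen after their values were seen. Txnip was 59.3 ± 18 in NC sham and 27.6 ± 13.4 in NC RIC, a fall on chow of -1.16 (adjusted p = 0.0445) against its rise on CDAHFD, with an interaction of 2.69 ± 0.39 (adjusted p = 0.000892). Cpt1a fell on chow by -0.52 (adjusted p = 0.0182) and rose on CDAHFD, with an interaction of 0.95 ± 0.14 (adjusted p = 0.000931). Fgf21, which did not pass on CDAHFD, fell on chow by -1.3 (adjusted p = 0.046), and its interaction was 1.54 ± 0.44 (adjusted p = 0.0431). Acacb fell on chow (-0.58, adjusted p = 0.0183) and rose on CDAHFD (interaction 1.38 ± 0.16, adjusted p = 0.000254). Hamp went the other way: it was 872 ± 180 in NC sham and 1767 ± 396 in NC RIC, a rise of 1.02 (adjusted p = 0.0496), against a fall on CDAHFD, with an interaction of -2.01 ± 0.36 (adjusted p = 0.00295). Gsta1 behaved like Hamp, with 1.07 on chow (adjusted p = 0.0183) and an interaction of -2.08 ± 0.3 (adjusted p = 0.000892).

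The 10 genes with the smallest interaction p held few of the genes described above. Ppm1k was 18.3 ± 2.46 in NC sham and 17.4 ± 1.68 in NC RIC, and its interaction was 1.56 ± 0.18 (adjusted p = 0.000254). Dnmbp, a scaffold for Cdc42 (-0.53 on chow and 0.8 on CDAHFD), Jmy, an actin nucleator (-0.43 and 0.43), and the predicted gene Gm16984 (-0.66 and 0.77) fell on chow and rose on CDAHFD. Mgst3, a microsomal glutathione transferase, rose on chow (0.6) and fell on CDAHFD (-0.48). Slc25a32, the mitochondrial folate carrier (-0.26 and 0.78), Slc23a2, a vitamin C carrier (-0.3 and 1.01), Bag4 (-0.18 and 1) and Crebrf (-0.16 and 1.06) rose on CDAHFD and did not pass on chow.

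**Figure D4:**
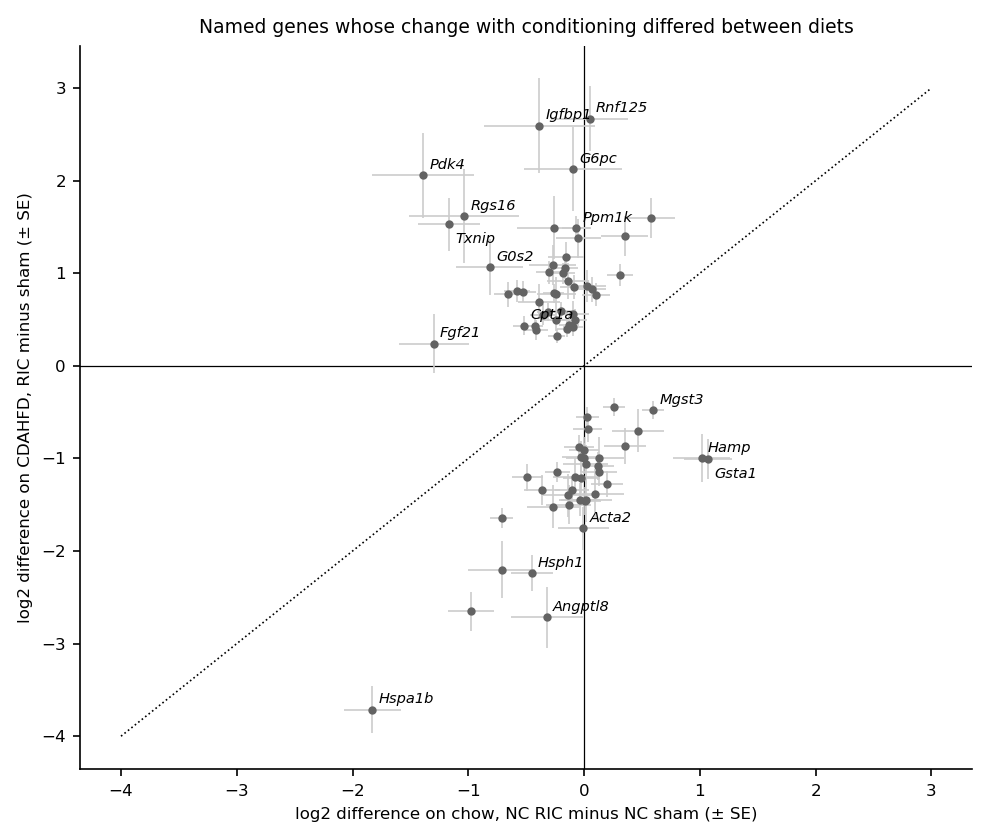
Each point is a named gene whose interaction passed (80 genes), with its log2 difference with conditioning on chow (x axis) and on CDAHFD (y axis) and bars of 1 SE; the dotted line marks equal change on both diets. For 13 of these genes, Acta2 among them, both chow means were under 1 FPKM, which leaves little room for a fall on chow. Hspa1b lies below 0 on both axes, and Txnip, Pdk4 and Rgs16 lie to the left and above 0.

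Levels in NC sham, CDAHFD sham and CDAHFD RIC are set side by side here, in that order, without a test, since the diet comparison shares the CDAHFD sham samples with the conditioning comparison. Rnf125 stood at 25.9 ± 11.5 on chow with sham, at 3.4 ± 3.13 on CDAHFD with sham and at 23.5 ± 5.49 on CDAHFD with RIC. Ppm1k followed the same order, with 18.3 ± 2.46, 6.46 ± 1.2 and 19.9 ± 3.21. For both the conditioned mean lay near the chow mean. Angptl8 stood at 7.14 ± 2.85, 71.4 ± 32.5 and 9.46 ± 2.97, and Per2 at 3.26 ± 0.647, 13.4 ± 3.44 and 4.59 ± 0.398. Acta2 was 0.215 ± 0.207, 8.44 ± 4.09 and 1.67 ± 0.736, and Jun was 3.43 ± 1.22, 35.1 ± 4.5 and 13.8 ± 5.69, so that conditioned samples remained above chow. Hsph1 was 2.7 ± 0.698 in CDAHFD RIC, far below both NC sham (17.2 ± 4.17) and CDAHFD sham (16.4 ± 2.65), and Gys2 was 78.4 ± 8.49, 89.9 ± 12.3 and 206 ± 37, with conditioned samples above both.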

How the data were processed

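Liver RNA was sequenced in 19 mouse samples, extracted with Trizol and made into libraries with a VAHTS kit, per the labels' protocols. Per the submitters' processing notes, which give neither roles nor order, the tools were HISAT2 2.2.1, Trimmomatic 0.38, DESeq2 1.18.1, R 3.4.1, HTSeq 0.13.5 and FastQC 0.11.9, with the mm10 assembly. The authors deposited FPKM in a single matrix with a column for each sample, and no column belonged to other samples. The program and annotation behind the FPKM, and whether the libraries keep strand, are not given in the sources used here; overlapping and near-identical genes are uncertain. FPKM are not counts, and no count model was used.

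Entries with no gene name (3225) made up 0.123% to 0.204% of a sample's FPKM and were left out. Spreadsheet dates stood in place of 26 symbols, and 160 entries shared a symbol; both kinds were tested (13 and 28) and left out of lists. Values were used as log2(FPKM + 1), a pseudocount of 1, for genes averaging 1 FPKM or more over all samples. R 4.3.3 with limma 3.58.1 (lmFit, contrasts.fit, eBayes with a trend) estimated a mean for each of the groups from all 19 samples together, leaving 15 residual degrees of freedom; tests were two-sided and p-values were adjusted by Benjamini-Hochberg over 10577 genes. Data handling used the package data.table, version 1.17.8, with python 3.11.15, pandas 2.3.3 and numpy 2.4.6, and plots matplotlib 3.10.9. Exonic length and GC content came from the GENCODE annotation of the same assembly by symbol, and 97.7% of tested genes had both. The fit was tested on simulated data. Samples were compared for duplicates, and equal values above 0 occurred in no more than 0.00945% of tested genes for any pair.

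Gene lists (43 of pathways, 16 of cell markers) are described by counts and medians, with no set test. The members and lists were chosen with earlier results of these data known. The rule for named genes took the 15 largest rises and the 15 largest falls among genes that passed without overlap, leaving out predicted genes and pseudogenes; at most 6 members, by smallest p, from every pathway list in which at least 2 passed; a fixed set of 10; and the 10 smallest p of the interaction. It gave 219 genes, of which 131 are named, including 29 of the 30 largest, and some are not reported here; these and the 16 other genes named were chosen after their values were seen. Alternatives were another pseudocount, 2 other filters, 3 other scalings, the compared groups alone, array weights, the replicate block, each CDAHFD sample left out, sham replicates 2 and 5 left out, and a correction for exonic length and GC content.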

Additional observations from a re-analysis of the deposited data

Results flagged for a closer look

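Of 286 groups of CDAHFD samples (143 tested genes named in the text, sham and RIC), 20 held 1 sample whose gap to the next was beyond the 95% limit of Dixon's test, where chance alone gives about 5 in 100. Sham replicate 1 stood apart at 48.7 FPKM for Hsp90aa1 (others 92.8 to 107) and 0.962 FPKM for Elovl6 (others 2.53 to 2.64). Sham replicate 2 stood apart at 11.7 FPKM for Ppara (others 5.75 to 7.47), 47.6 FPKM for Acot12 (others 34.2 to 37.5), 4.8 FPKM for P4ha1 (others 6.87 to 7.61) and 39.5 FPKM for Foxa3 (others 26.9 to 29.8). Sham replicate 2 also stood apart at 8.87 FPKM for Rnf125 (others 1.42 to 3.08). Sham replicate 3 stood apart at 45.2 FPKM for Rhob (others 34.7 to 37) and 34.5 FPKM for Ctgf (others 20.2 to 23.8). Sham replicate 4 stood apart at 3.81 FPKM for Bag4 (others 2.57 to 2.91). Conditioned replicate 1 stood apart at 20.4 FPKM for Fitm2 (others 23.6 to 23.9), 11.2 FPKM for Srebf1 (others 4.66 to 5.35) and 10.8 FPKM for Slc25a32 (others 10.1 to 10.2). Conditioned replicate 2 stood apart at 13.9 FPKM for Angptl8 (others 7.73 to 8.39) and 21.4 FPKM for Adgre1 (others 9.55 to 11). Conditioned replicate 3 stood apart at 3.9 FPKM for Ppp1r3b (others 7.22 to 7.71), 25.4 FPKM for Acot3 (others 6.84 to 9.16) and 1.08 FPKM for Noct (others 2.3 to 2.45). Conditioned replicate 4 stood apart at 2.61 FPKM for Hspa1b (others 1.44 to 1.58) and 2.77 FPKM for Acta2 (others 1.25 to 1.38).

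The interaction between conditioning and diet passed for 80 of the 143 tested genes named, with adjusted p from 0.000254 to 0.0484 (limma). Over all 10577 tested genes it passed for 711 (6.72%). The named genes were chosen largely by their change on CDAHFD and in part by the interaction itself. Their higher share therefore follows from the choice and is no result about them. Among heat shock and related genes, the change on CDAHFD minus the change on chow was -1.88 for Hspa1b, -1.68 for Hspa1a, -1.78 for Hsph1, -0.94 for Dnajb1, -0.91 for Ahsa2, -1.24 for Fkbp4 and 1.18 for Bag4. For genes of glucose handling this interaction was 2.98 for Igfbp1, 2.22 for G6pc, -2.39 for Angptl8, 2.69 for Txnip, 3.45 for Pdk4, 1.36 for Ppargc1a, 0.57 for Fbp1, 0.56 for Creb3l3 and 1.33 for Gys2. In fatty acid and lipid droplet genes it was 1.42 for Ppara, 0.89 for Acot12, 1.75 for Acot3, 0.95 for Cpt1a, 1.54 for Fgf21, 0.91 for Fitm2, 1.88 for G0s2 and 1.38 for Acacb. In sterol, bile acid and drug-metabolizing genes it was 0.76 for Abcg5, 1.05 for Abcg8, 0.58 for Scarb1, 0.79 for Abcc2, 0.83 for Klb, 0.802 for Abcb4 and 0.67 for Cyp3a13. In amino acid and methyl donor genes it was 0.52 for Kmo, 1.02 for Cps1, 1.56 for Ppm1k, 1.08 for Mat1a and 0.74 for Lpcat3. In clock and temperature genes it was 1.02 for Cirbp, -0.97 for Per2, 0.93 for Rora, 0.55 for Cry2 and 0.67 for Klf9. In early response, contractile and matrix genes it was -1.41 for Cyr61, -1.48 for Jun, -1.47 for Ier3, -1.27 for Atf3, -1.16 for Nr4a1, 2.66 for Rgs16, -1.46 for Thbs1, -1.75 for Acta2, -1.26 for Tagln and -1.12 for Ankrd1. In inflammatory, macrophage and immunoglobulin genes it was -1.18 for Cxcl10, -0.72 for Ccl2, -0.91 for Ccl7, -0.999 for Cxcl5, -1.22 for Isg15, -0.71 for Icam1, 0.65 for Timd4 and -1.46 for Ighg2c. In iron, proliferation and stress genes it was -2.01 for Hamp, -1.13 for Id1, -1.204 for Smad7, -0.84 for Mki67, -0.95 for Cdk4, -2.08 for Gsta1, 1.22 for Crebrf and -0.72 for Ddit3. In the remaining genes it was -1.08 for Foxa3, -1.49 for mt-Ti, -0.58 for mt-Nd3, 2.62 for Rnf125, 1.05 for Abca6, -1.25 for Rbm12b1, -1.37 for Dynll1, 1.33 for Dnmbp, -1.08 for Mgst3, 0.86 for Jmy, 1.04 for Slc25a32, 1.31 for Slc23a2 and 1.43 for Gm16984. For 13 of these genes (Ier3, Atf3, Nr4a1, Thbs1, Acta2, Ankrd1, Cxcl10, Ccl2, Ccl7, Cxcl5, Icam1, Ighg2c and Mki67) both chow means were under 1 FPKM, and Ccl7 and Cxcl5 were listed at 0 in all 10 chow samples. At such levels a fall on chow could hardly be seen on the log2(FPKM + 1) scale, and for Ccl7 and Cxcl5 the interaction is the difference on CDAHFD itself. A positive value is a change that was higher on CDAHFD than on chow. For Oas2, whose adjusted p rounds to the threshold, the interaction did not pass.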

How the results depend on the processing

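Counts are read against 922 higher, 1964 lower, 711 interaction and 125 chow calls (NC RIC minus NC sham). With a mean of at least 5 FPKM there were 483 higher, 997 lower and 386 interaction calls, where fewer genes were tested. With quantile normalization 1481 were higher and 59 passed on chow; with values rescaled to a common sum 971 were lower; with median-ratio scaling 977 were lower; after the length and GC correction, which was added after seeing the data, 1136 were lower. With only the groups compared in the fit 543 were higher and 46 passed on chow. Chow calls numbered 48 with no filter and 401 with array weights. Leaving out 1 CDAHFD sample gave 645 (without conditioned replicate 2) to 1120 higher, 1300 (without conditioned replicate 3) to 2151 lower, 469 (without sham replicate 3) to 1042 interaction and 62 to 125 chow calls, the latter moving by over 1.5 times without sham replicate 3, 4 or 5 or conditioned replicate 2 or 4; without sham replicates 2 and 5 the interaction passed for 1266. The cause of these moves was not tested. In the fits without a CDAHFD sample the chow means were unchanged, since those samples enter the chow test only through the shared estimate of spread. Under the other settings, the replicate block aside, these counts stayed within 1.5 times. Of the 143 tested genes named, none changed direction; at most 12 stopped passing in 1 setting, the compared groups alone, and the 105 still tested with the 5 FPKM filter kept their call.

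The replicate numbers gave no sign of pairing the CDAHFD samples. Deviations of same-numbered sham and conditioned samples correlated at -0.0263, 0.148, -0.174 and 0.154, and not every sample correlated best with its own number. Pairs of unlike number ran from -0.327 to 0.233. These values cannot exclude a pairing, and the labels do not state one. A replicate block gave 902 higher, 1645 lower, 600 interaction and 79 chow calls. Depth stays uncertain, so no limit for low genes is given.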
